A study of Mus musculus with 6 samples.

Results

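Inhibitory receptors and the ectonucleotidase CD39 were examined at the RNA level in mouse CD8+ T cells treated with aminooxyacetic acid (AOA). The genes were listed by name, as Pdcd1 (PD-1), Lag3, Havcr2 (TIM-3), Tigit, Ctla4, Cd160, Btla and Entpd1 (CD39). All 8 were present among the 11922 genes of the count table, and all 8 were among the 11759 genes that passed the filter on low counts. Splenic CD8+ T cells of C57BL/6J mice, for which the labels name no transgene or deletion, were activated for 72 h with beads bearing antibodies to CD3 and CD28 and expanded for 4 further days without them. Interleukin-2 at 100 units/ml was present in every culture. Vehicle cultures received water and AOA cultures 0.25 mM AOA, an inhibitor of enzymes that depend on pyridoxal phosphate, for all 7 days. The same 3 donor mice supplied both groups, so that there were 3 libraries of each group, and a library number is that of its mouse. The study's methods give a minimum age and both sexes for all of its experiments, and do not say which applied to these donors. The question addressed here is how the RNA of these receptors differed between AOA-treated and vehicle-treated cells on day 7, 4 days after the beads were removed.

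These receptors restrain T cells that have met antigen. CTLA-4 competes with the costimulator CD28 for CD80 and CD86, PD-1 binds PD-L1 and PD-L2 and recruits phosphatases to the antigen receptor and CD28, and LAG-3 binds MHC class II and other ligands. TIM-3 and TIGIT mark activated cells and, under persistent stimulation, exhausted cells. BTLA and CD160 bind HVEM, a member of the TNF receptor family, while CD39 is an enzyme that removes phosphates from extracellular ATP and ADP and feeds the production of adenosine, itself an inhibitory signal for T cells. Several of these genes are switched on by antigen receptor signalling through factors such as NFAT and AP-1, so that freshly activated cells carry them as well as exhausted ones.

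Upstream sequence from RefSeq (GRCm38.p6) was available in the tables used here for 7 of the 8 genes, in 9 windows that reach from 250 bases before the annotated start to 50 bases after it. Lag3 had no window. The 250 bases before the start are shown for a pair of classical checkpoint genes that fell, for the gene with the largest fall, and for Btla, whose level was higher with AOA in every library. They lie at chr1:94052554-94052803 on the minus strand for Pdcd1, chr1:60908775-60909024 on the plus strand for Ctla4, chr11:46454681-46454930 on the plus strand for Havcr2 and chr16:45224087-45224336 on the plus strand for Btla. Each is written 5′ to 3′ on the strand of the gene. Capitals mark letters matching the NFAT core (GGAAA, which reads TTTCC when it lies on the other strand), AP-1 (TGANTCA) or the NR4A response element NBRE (AAAGGTCA).
Pdcd1: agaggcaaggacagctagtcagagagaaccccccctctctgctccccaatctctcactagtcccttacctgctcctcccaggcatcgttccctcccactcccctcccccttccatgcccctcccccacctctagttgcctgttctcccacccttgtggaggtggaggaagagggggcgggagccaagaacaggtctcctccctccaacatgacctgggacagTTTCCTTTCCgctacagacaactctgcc
Ctla4: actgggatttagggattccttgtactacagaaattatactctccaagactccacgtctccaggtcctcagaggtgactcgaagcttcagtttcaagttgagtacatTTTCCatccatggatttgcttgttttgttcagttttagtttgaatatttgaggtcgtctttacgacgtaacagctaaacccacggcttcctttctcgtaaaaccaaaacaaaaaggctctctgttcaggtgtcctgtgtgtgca
Havcr2: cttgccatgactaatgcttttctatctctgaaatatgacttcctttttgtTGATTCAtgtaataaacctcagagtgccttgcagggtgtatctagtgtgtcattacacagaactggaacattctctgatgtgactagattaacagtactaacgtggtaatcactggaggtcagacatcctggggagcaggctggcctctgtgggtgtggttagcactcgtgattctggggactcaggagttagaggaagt
Btla: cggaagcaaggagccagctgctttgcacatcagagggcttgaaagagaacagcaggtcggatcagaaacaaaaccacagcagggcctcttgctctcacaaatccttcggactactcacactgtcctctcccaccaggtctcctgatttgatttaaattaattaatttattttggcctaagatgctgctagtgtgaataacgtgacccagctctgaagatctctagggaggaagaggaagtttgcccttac

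The Pdcd1 window held a pair of adjoining NFAT cores, with first bases 28 and 23 bases before the start. The Ctla4 window held 1 such core, 144 bases before the start, and the Tigit window held 2, at 110 and 13 bases. The single AP-1 match among the 9 windows lay 200 bases before the start of Havcr2. The Btla window had no match to these 3 motifs. An NFAT core was found in 5 of the 9 windows, including 1 of Cd160, which was not called, and in 59.0% of the 12147 promoter windows of genes in the count table, so these letters are common. AP-1 letters were in 1 of the 9 windows and in 4.9% of all, and NBRE letters were in 0 of the 9 and in 1.0% of all. Both strands were searched throughout. The hypoxia response core ACGTG occurred in 4 of the 9 windows (Havcr2, Tigit, Ctla4 and Btla) and in 25.8% of all windows. The E-box CANNTG occurred in 6 windows (63.7% of all), the TCF motif CTTTGA in 2 (11.9%) and the T-box motif AGGTGT in 1 (10.9%), that of Ctla4, where it overlapped an E-box. These matches describe the letters of the windows and do not show binding.

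Total counts ranged from 12881962 to 18934869 with vehicle and from 18696114 to 21997078 with AOA. Levels are given as CPM, read counts relative to library totals that were scaled by the TMM method, and all folds are those of edgeR, whose quasi-likelihood test was applied to every gene with Benjamini-Hochberg adjustment. A gene is said to have been called, or to have fallen or risen, when its adjusted p was under 0.05. Differences were widespread. Of all tested genes 53.0% were called, 26.8% lower and 26.2% higher with AOA. In 31.1% of genes all 3 AOA libraries lay below all 3 vehicle libraries, and in 31.0% all 3 lay above. The median log2 fold change over all tested genes was -0.02. In bulk RNA, fewer cells expressing a receptor and less of its RNA per cell cannot be told apart.

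The cells carried the markers of their label. Summed CPM of the 5 measured CD8 T cell markers (Cd3d, Cd3e, Cd3g, Cd8a and Cd8b1) was 2908 to 3737 with vehicle and 3994 to 4644 with AOA, and 2 of them, Cd8a and Cd8b1, rose, the latter not past the threshold without AOA replicate 3 (adjusted p = 0.0634). The study's methods describe positive selection of splenic cells on magnetic beads against CD8α, a step that enriches for CD8+ cells, before activation. Markers of other cells that can carry the same receptors also moved. All 3 CD4 T cell markers (Cd4, Cd40lg and Zbtb7b) fell, from a summed 147 to 197 CPM with vehicle to 17.4 to 36.8 CPM with AOA. Among 9 myeloid or dendritic cell markers 5 were in the table and 3 were tested. These 3 (Itgam, Itgax and Fcer1g) were all called lower (log2 fold change -5.25, -4.70 and -3.63). The sum over the list was 69.4 to 151 CPM with vehicle and 3.13 to 8.09 CPM with AOA. Without AOA replicate 2 the value for Itgam was -5.90. The fall of Fcer1g was -1.28 (adjusted p = 0.0385) without vehicle replicate 2, and its call (adjusted p = 0.0150) was lost with limma voom and without each AOA replicate, with adjusted p from 0.0923 to 0.123. The defining myeloid marker Lyz2 had 0, 5 and 0 counts in vehicle replicates 1, 2 and 3 and more with AOA, at 6, 22 and 2, while Cd14 had 13, 16 and 5 counts with vehicle and 0, 1 and 0 with AOA. Neither passed the filter on low counts. NK cell markers summed to 156 to 328 CPM with vehicle and 135 to 221 CPM with AOA, with Klrb1c and Klre1 lower (Klrb1c by 3.02 on the log2 scale, or -2.07 without vehicle replicate 2), and the defining marker Ncr1, which was not tested, had 0, 37 and 0 counts with vehicle and 5, 11 and 3 with AOA. For regulatory T cells the sum was 833 to 1183 CPM with vehicle and 674 to 1238 CPM with AOA, with 1 of 5 lower and 1 higher, and the defining marker Foxp3 was at 11 to 15.9 CPM with vehicle and 15.5 to 18.3 CPM with AOA, overlapping groups that were not called (log2 fold change 0.36, adjusted p = 0.127), though it was called without vehicle replicate 2 (0.55, adjusted p = 0.0228). Most of the NK sum was Eomes, at 125 to 194 CPM with vehicle and 121 to 201 CPM with AOA. It was not called (log2 fold change 0.04, adjusted p = 0.895). Most of the regulatory T cell sum was Il2ra, at 535 to 897 CPM with vehicle and 479 to 1014 CPM with AOA. That gene was not called either (0.03, adjusted p = 0.950). B cell markers summed to 13.9 to 18.4 CPM with vehicle and 23.1 to 30.9 CPM with AOA. The part of other cell types in the results below was not tested.

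Vehicle replicate 2 stood apart from the other vehicle libraries in several of these genes. It held 843 counts of Fcer1g, against 28 and 108 in vehicle replicates 1 and 3, and 1757 counts of Klrb1c, against 525 and 371. Within the receptor genes it had the highest vehicle level of Pdcd1, Havcr2, Cd160 and Entpd1 and the lowest of Ctla4, Lag3, Tigit and Btla. The values without it are given where they change a call, a direction or a fold by more than 1.5 times. Among the AOA libraries replicate 1 stood apart, with a chi-square per gene of 71.14 and 64.7 against replicates 2 and 3, which differed from each other by 10.55. It had the highest AOA level of Pdcd1, Cd160 and Btla and the lowest of Lag3, Tigit and Entpd1, and leaving it out changed no call of the 8.

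AOA treatment was accompanied by a fall of 6 of the 8 genes, Havcr2, Lag3, Pdcd1, Tigit, Ctla4 and Entpd1, by between 3.34-fold and 32.3-fold. The 6 that fell are 6 of 8, against 26.8% of all tested genes called lower, and the same 6 had all AOA libraries below all vehicle libraries, against 31.1% of all genes. None of the 8 was called higher in the main edgeR fit, which has no mouse term, against 26.2% of all tested genes. Btla passed an unadjusted p under 0.05 in the upward direction, which makes 1 gene. It was the 1 gene called higher by DESeq2 and by limma voom. So it was by edgeR with the mouse as a replicate block, with library totals only, with no low-count filter or without vehicle replicate 3. The median log2 fold change of the 8 was -2.23, against -0.02 over all genes. All 6 were lower with AOA in each of the 3 mice. Adjusted p-values of the 6 ran from 9.44e-05 to 3.40e-04, and their calls were kept under all 13 alternative settings, with a largest adjusted p of 0.00561.

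**Figure D1:**
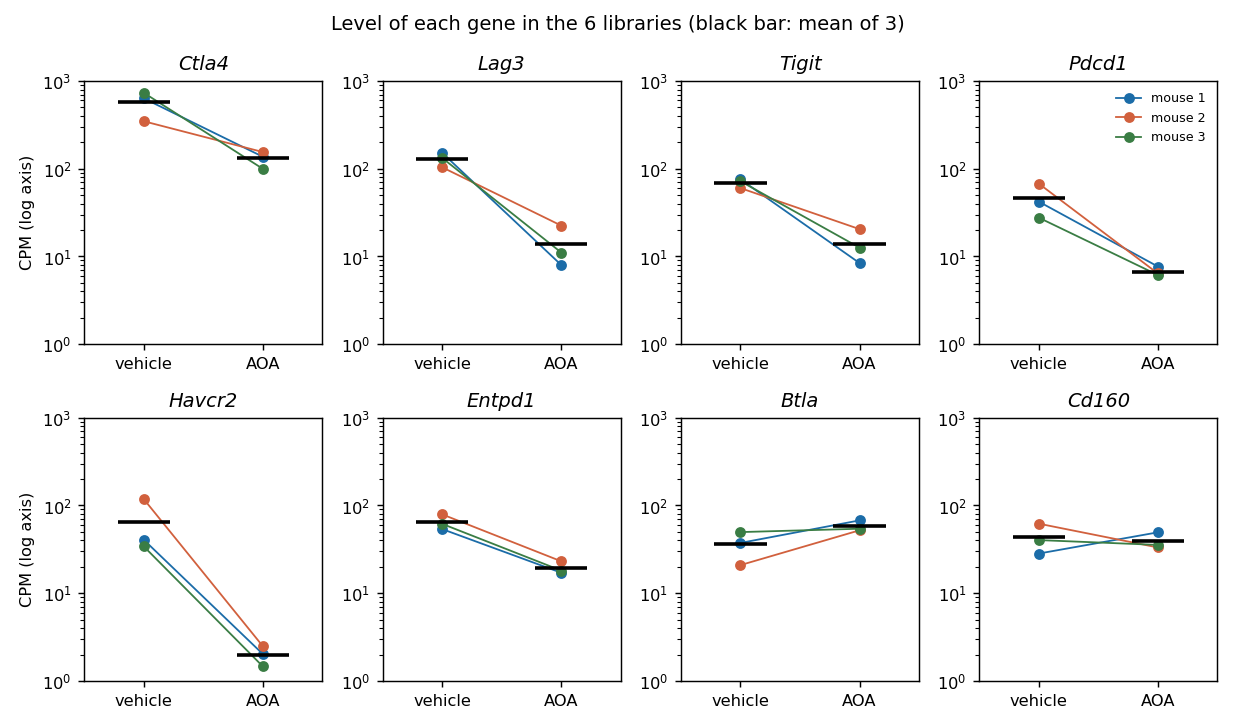
Level of each of the 8 genes in CPM on a log axis, with vehicle and AOA on the x axis, 1 point a library, lines joining the libraries of the same mouse and black bars for the mean of 3. In 6 panels every AOA point lies below every vehicle point, in the Btla panel every AOA point lies above, and in the Cd160 panel the groups overlap and mouse 1 runs against mice 2 and 3.

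CTLA-4, the CD28 competitor, had the highest RNA level per length of the 8. Ctla4 (Entrez 12477, chr1:60887000-60915832, plus strand, GRCm38) was at 634, 348 and 734 CPM in vehicle replicates 1, 2 and 3 and at 137, 155 and 99.7 CPM in the AOA replicates. All AOA libraries lay below all vehicle libraries, and vehicle replicate 2 was the lowest of its group. The mean of the vehicle libraries was 572 ± 200 CPM and that of the AOA libraries 131 ± 28.4 CPM (SD, n = 3 each). Ctla4 thus fell 4.38-fold, with a log2 fold change of -2.13 (SE 0.28, adjusted p = 3.40e-04). By mouse the log2 ratio of AOA over vehicle was -2.21, -1.16 and -2.88, smallest in size in mouse 2. Even after this fall Ctla4 kept 1977 to 2978 counts in each AOA library.

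The genes beside Ctla4 belong to the same receptor family. Cd28, the costimulator with which CTLA-4 competes, lies 135.7 kb from it, and Icos, an inducible costimulator, lies 44.9 kb away on the other side. Cd28 fell from 419 to 171 CPM (log2 fold change -1.29, SE 0.15, adjusted p = 1.84e-04) and Icos from 171 to 63.6 CPM (-1.42, SE 0.21, adjusted p = 6.04e-04). Of the 16 nearest tested genes on either side of the 8, 7 fell, 3 rose and 6 were not called, where 26.8% of all tested genes fell and 26.2% rose. Some of these nearest genes were far away, at 2319.1 kb on 1 side of Havcr2 and 1261.1 kb on 1 side of Pdcd1. The 3 that rose were those nearest to Tigit (BC002163 at 670.1 kb and Qtrt2 at 196.3 kb) and Atg3, 35.2 kb from Btla. No neighbour of Havcr2 or Cd160 was called. The calls of BC002163 (without vehicle replicate 1 or AOA replicate 1) and Qtrt2 (without vehicle replicate 3 or AOA replicate 3) were lost with adjusted p from 0.0504 to 0.0623. Cd86, a ligand of both CTLA-4 and CD28, was at 5.16, 4.12 and 11.8 CPM with vehicle and 3.45, 0.846 and 2.57 CPM with AOA and fell by 1.62 on the log2 scale (SE 0.53, adjusted p = 0.0282). Its call was lost without vehicle replicate 3 (-0.98, adjusted p = 0.138), AOA replicate 2 (-1.22, adjusted p = 0.0605) or AOA replicate 3 (-1.70, adjusted p = 0.0721).

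PD-1, the receptor for PD-L1 and PD-L2, differed among vehicle cultures more than among AOA cultures. Pdcd1 (Entrez 18566, chr1:94038305-94052553, minus strand) was at 42.2, 67.7 and 27.7 CPM with vehicle and 7.68, 6.40 and 6.15 CPM with AOA. The highest vehicle library was 2.45 times the lowest, and the highest AOA library 1.25 times the lowest. The groups did not overlap. Pdcd1 fell 6.79-fold (log2 fold change -2.76, SE 0.31, adjusted p = 1.32e-04), and the log2 ratios by mouse were -2.44, -3.38 and -2.15. Both of its ligands, which T cells also make, fell with it. Pdcd1lg2 (PD-L2) was at 12.5, 29.9 and 11.1 CPM with vehicle and 2.30, 2.17 and 1.51 CPM with AOA, a log2 fold change of -3.16 (SE 0.41, adjusted p = 3.06e-04). Like Pdcd1 it was highest in vehicle replicate 2, and it fell by 2.52 when that library was left out (adjusted p = 3.83e-05). Cd274 (PD-L1) was at 31.5, 48.2 and 42.8 CPM with vehicle and 15.0, 13.2 and 14.4 CPM with AOA, and fell by 1.52 on the log2 scale (SE 0.18, adjusted p = 1.87e-04).

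TIM-3 showed the largest fall of the 8. Havcr2 (Entrez 171285, chr11:46454935-46481255, plus strand) was at 40.6, 118 and 34.1 CPM with vehicle and at 2.02, 2.48 and 1.46 CPM with AOA. Vehicle replicate 2 was 3.46 times the lowest vehicle library, and all AOA libraries were far below all of the vehicle libraries. The log2 fold change was -5.01 (SE 0.52, adjusted p = 9.44e-05), a 32.3-fold fall that only 0.383% of tested genes exceeded. Without vehicle replicate 2 it was -4.19 (adjusted p = 3.95e-06). The AOA values rested on 44, 47 and 29 counts, against 512, 1863 and 629 with vehicle, so counting error is larger there. Within each mouse Havcr2 fell further than Pdcd1, by a mean of 2.08 ± 0.24 log2 units (SD, n = 3), a description that was not tested. Among ligands ascribed to TIM-3, Hmgb1, a chromatin protein that can be released from cells, rose from 83.0 to 233 CPM (log2 fold change 1.49, SE 0.14, adjusted p = 5.68e-05). Lgals9 (galectin-9) was not called (log2 fold change 0.34, SE 0.17, adjusted p = 0.116), except without vehicle replicate 3 (0.52, adjusted p = 0.0378), and Ceacam1 was too low to be tested.

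LAG-3 is a CD4-related receptor that binds MHC class II. Lag3 (Entrez 16768, chr6:124904361-124911705, minus strand) was at 152, 104 and 133 CPM with vehicle and 8.0, 22.5 and 11.1 CPM with AOA. In contrast to Pdcd1, its vehicle libraries were close together, with the highest 1.46 times the lowest, and its AOA libraries were spread, with the highest 2.81 times the lowest. Lag3 fell 9.40-fold (log2 fold change -3.23, SE 0.35, adjusted p = 1.16e-04), with log2 ratios of -4.23, -2.21 and -3.57 by mouse. The neighbouring gene Cd4, 16.1 kb away, fell by 3.08 on the log2 scale (adjusted p = 1.29e-04), from 82.8 to 9.81 CPM. On the other side Ptms, at 1.2 kb, fell by 0.63 (adjusted p = 0.00560). The CD4 T cell markers given above moved in the same direction as Lag3, and their part in its fall was not tested.

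TIGIT competes with the activating receptor CD226 for the poliovirus receptor family. Tigit (Entrez 100043314, chr16:43648867-43664146, minus strand) was at 75.7, 60.2 and 72.1 CPM with vehicle, the narrowest spread of the 8 genes in that group, and at 8.41, 20.5 and 12.6 CPM with AOA. It fell 5.02-fold (log2 fold change -2.33, SE 0.29, adjusted p = 2.21e-04), with log2 ratios of -3.15, -1.55 and -2.51. As with Lag3 and Ctla4, the fall was smallest in mouse 2. Cd226 was at 104, 132 and 122 CPM with vehicle and 220, 160 and 148 CPM with AOA, and rose by 0.56 on the log2 scale (SE 0.18, adjusted p = 0.0243). Its call was lost without vehicle replicate 1 (0.49, adjusted p = 0.0840), vehicle replicate 3 (0.60, adjusted p = 0.0514) or AOA replicate 1 (0.37, adjusted p = 0.0502). Of the ligands that TIGIT and its partners bind, Pvr (CD155) fell from 37.6 ± 3.45 to 20.6 ± 1.51 CPM (SD, n = 3, log2 fold change -0.87, SE 0.14, adjusted p = 9.55e-04), while Nectin3 rose by 3.98 (SE 0.39, adjusted p = 6.89e-05) at low levels, from 0.268 ± 0.112 to 4.20 ± 0.648 CPM (SD, n = 3).

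The fall of Ctla4, Lag3 and Tigit was smallest in mouse 2, and that of Pdcd1 and Havcr2 was largest there. The log2 CPM of vehicle replicate 2, relative to the mean of vehicle replicates 1 and 3, was -0.97, -0.45 and -0.30 for Ctla4, Lag3 and Tigit, and 0.98 and 1.66 for Pdcd1 and Havcr2. AOA replicate 2 was also the highest AOA library for Ctla4, Lag3 and Tigit. The SD of the 3 log2 ratios was 0.64 to 1.03 for these 5 genes.

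**Figure D2:**
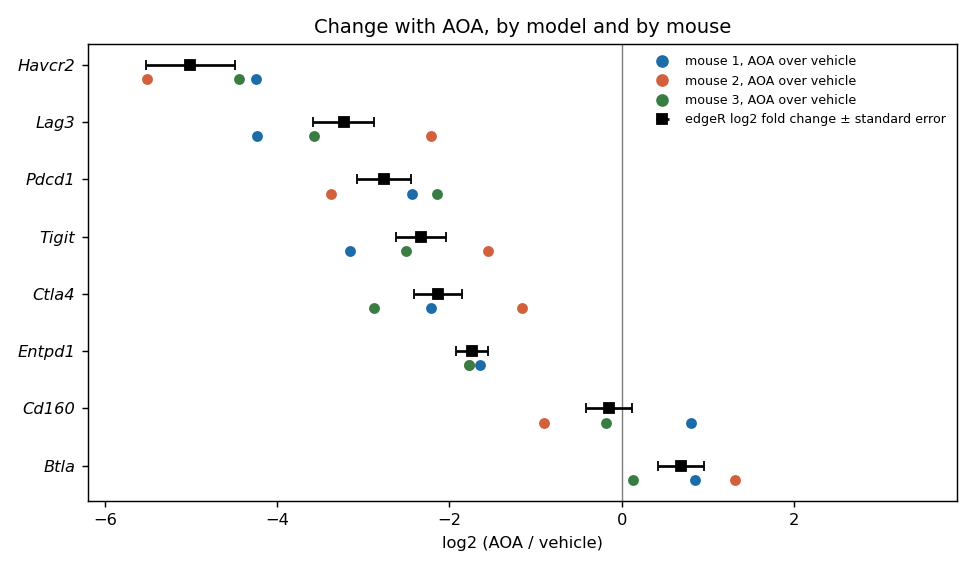
Log2 ratio of AOA over vehicle on the x axis for the 8 genes, with black squares and bars for the edgeR log2 fold change ± its standard error and coloured points for each mouse. The points of 6 genes all lie left of 0, those of Btla all right of 0, those of Cd160 on both sides, and those of Entpd1 nearly coincide.

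The receptors for HVEM did not follow the other receptors. Btla (Entrez 208154, chr16:45224315-45257670, plus strand), an inhibitory receptor that is already present on resting lymphocytes, was at 37.4, 20.9 and 49.7 CPM with vehicle and 67.6, 52.1 and 54.3 CPM with AOA. All 3 AOA libraries lay above all 3 vehicle libraries, which was so for 31.0% of all tested genes, though AOA replicate 2 exceeded vehicle replicate 3 only narrowly. The means were 36.0 ± 14.5 and 58.0 ± 8.39 CPM (SD, n = 3), a log2 fold change of 0.69 (SE 0.27) with an adjusted p of 0.0586, just short of the threshold. With the mouse as a replicate block it was 0.76 with an adjusted p of 0.0116, in a fit that called 26.6% of all genes higher. The log2 ratios by mouse were 0.85, 1.32 and 0.13. Over the 13 alternatives the adjusted p ranged from 0.0102 to 0.198, and Btla was called in 6 of them. The largest estimate, 1.03 (adjusted p = 0.0102), came with vehicle replicate 3 left out.

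Cd160 (Entrez 54215, chr3:96798763-96829351, minus strand), which is found on NK cells and on subsets of CD8+ T cells, did not differ in 1 direction. It was at 28.3, 62.0 and 40.3 CPM with vehicle and 49.4, 33.2 and 35.5 CPM with AOA. The groups overlapped, and AOA was above vehicle in mouse 1 and below it in mice 2 and 3, with log2 ratios of 0.80, -0.90 and -0.18. The log2 fold change was -0.15 (SE 0.27, adjusted p = 0.676). It turned to 0.23 (adjusted p = 0.384) without vehicle replicate 2. The 5′ end of Cd160 overlaps Pdzk1 on the opposite strand by 68 bases. The libraries were stranded, but none of the sources gives the strand setting of the counting. HVEM itself, Tnfrsf14, was at 21.7, 21.9 and 24.4 CPM with vehicle and 11.3, 10.5 and 15.2 CPM with AOA, and fell by 0.88 on the log2 scale (SE 0.18, adjusted p = 0.00339).

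CD39 gave the most uniform fall. Entpd1 (Entrez 12495, chr19:40612366-40741602, plus strand), the ectonucleotidase that degrades extracellular ATP, was at 53.8, 79.2 and 61.7 CPM with vehicle and 17.1, 23.1 and 18.1 CPM with AOA. No library of either group overlapped the other. The means were 64.9 ± 13.0 and 19.4 ± 3.25 CPM (SD, n = 3), a 3.34-fold fall with a log2 fold change of -1.74 (SE 0.19, adjusted p = 1.16e-04). The log2 ratios by mouse were -1.65, -1.77 and -1.77, with an SD of 0.07, against 0.60 to 1.03 for the other 7 genes. Mouse 2 had the highest Entpd1 level in both groups.

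Genes of the adenosine pathway around CD39 did not share a direction. Among 22 listed genes 16 were in the table and tested, of which 5 fell and 5 rose, with a median log2 fold change of -0.01. Over all tested genes 26.8% fell and 26.2% rose, so these counts are close to the background. Nt5e (CD73), the enzyme that turns AMP into adenosine, was not called (log2 fold change -0.10, SE 0.30, adjusted p = 0.802), with means of 99.0 ± 42.9 CPM for vehicle and 92.5 ± 8.16 CPM for AOA (SD, n = 3). Vehicle replicates 1 and 3 alone gave a called fall of 0.38 (adjusted p = 0.0313). Adora2a, the main adenosine receptor of T cells, was at 120, 70.2 and 89.5 CPM with vehicle and 11.4, 18.6 and 13.6 CPM with AOA, and fell by 2.68 on the log2 scale (SE 0.24, adjusted p = 4.78e-05). Cd38, an enzyme that consumes NAD, fell by 0.95 (adjusted p = 0.00584), and P2ry10, a lysophospholipid receptor of the P2Y family, fell by 1.58 (adjusted p = 0.00536). Dpp4 (CD26), which binds adenosine deaminase at the cell surface, fell by 0.76 (adjusted p = 0.00577). Enpp1, another ectoenzyme that splits ATP, fell by 1.39 (SE 0.38, adjusted p = 0.0126), though its groups overlapped and the call was lost without vehicle replicate 1 (-1.09, adjusted p = 0.0533), AOA replicate 1 (-1.38, adjusted p = 0.0638) or AOA replicate 3 (-1.19, adjusted p = 0.0518). Among the genes that rose, Ada (adenosine deaminase) went from 10.7 ± 2.68 to 33.0 ± 2.62 CPM (log2 fold change 1.62, SE 0.20, adjusted p = 2.03e-04), Adk (adenosine kinase) from 18.7 to 43.0 CPM (1.20, adjusted p = 3.48e-04) and the transporter Slc29a1 (ENT1) from 55.2 to 160 CPM (1.54, adjusted p = 3.73e-05). The others that rose were Entpd5, a relative of CD39 in the endoplasmic reticulum (0.66, adjusted p = 0.00627), and Panx1, a channel that releases ATP (0.53, adjusted p = 0.0107).

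Levels were compared between the 8 genes as CPM per kilobase of the gene length given with the counts. With vehicle Ctla4 was highest at 296 ± 104 (SD, n = 3), followed by Tigit at 72.0 ± 8.46, Lag3 at 64.9 ± 12.1, Pdcd1 at 23.8 ± 10.5 and Havcr2 at 23.6 ± 17.2. Cd160 at 16.5 ± 6.47, Entpd1 at 14.8 ± 2.96 and Btla at 11.1 ± 4.48 were lowest, near the median of 10.6 over all tested genes. Havcr2 was at 14.9, 43.4 and 12.5 in vehicle replicates 1, 2 and 3, so its vehicle mean rested largely on replicate 2. Its rank in these libraries was 5, 4 and 8. Of neighbours in this order, Ctla4 and Tigit, and Lag3 and Pdcd1, had library ranges that did not overlap, and all other neighbours overlapped. With AOA the order became Ctla4 at 67.6 ± 14.7, Btla at 17.9 ± 2.59, Cd160 at 14.9 ± 3.31, Tigit at 14.4 ± 6.38, Lag3 at 6.92 ± 3.80, Entpd1 at 4.44 ± 0.743, Pdcd1 at 3.49 ± 0.424 and Havcr2 at 0.730 ± 0.188. Here Ctla4 and Btla, and Pdcd1 and Havcr2, did not overlap, and the other neighbours did. By its mean Btla was the lowest of the 8 with vehicle and second with AOA, but its rank by library varied, at 7, 8 and 4 with vehicle and 2, 3 and 2 with AOA. Among all tested genes ranked by this measure, Ctla4 went from percentile 98.3 to 89.8, Lag3 from 90.7 to 39.6, Havcr2 from 72.1 to 10.3 and Btla from 51.3 to 63.4.

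Together the 8 genes took 0.104%, 0.0890% and 0.112% of all counts with vehicle and 0.0294%, 0.0319% and 0.0242% with AOA. The summed level in CPM per kilobase was 554, 421 and 593 with vehicle and 132, 151 and 108 with AOA. Without Ctla4 these sums were 226, 241 and 213 with vehicle and 60.9, 70.7 and 56.7 with AOA, so the lower total did not rest on Ctla4 alone. The make-up of the sum shifted. Ctla4 contributed 59.2%, 42.8% and 64.1% with vehicle and 53.7%, 53.2% and 47.7% with AOA, overlapping ranges. Lag3 went from 12.4% ± 1.26 to 5.19% ± 2.20 (SD, n = 3) and Havcr2 from 5.04% ± 4.57 to 0.554% ± 0.0544. The Havcr2 share was 2.69%, 10.3% and 2.11% in vehicle replicates 1, 2 and 3, so its vehicle mean rested largely on replicate 2. The HVEM receptors Btla and Cd160 together made up 4.02%, 7.11% and 5.17% with vehicle and 30.0%, 19.0% and 27.9% with AOA, ranges that did not overlap. Their own summed level did overlap, at 22.2, 29.9 and 30.6 CPM per kilobase with vehicle and 39.6, 28.7 and 30.2 with AOA, and neither gene was called, so the larger share went with the lower levels of the other genes. The mean share of Tigit was 13.9% with vehicle and 10.9% with AOA.

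**Figure D3:**
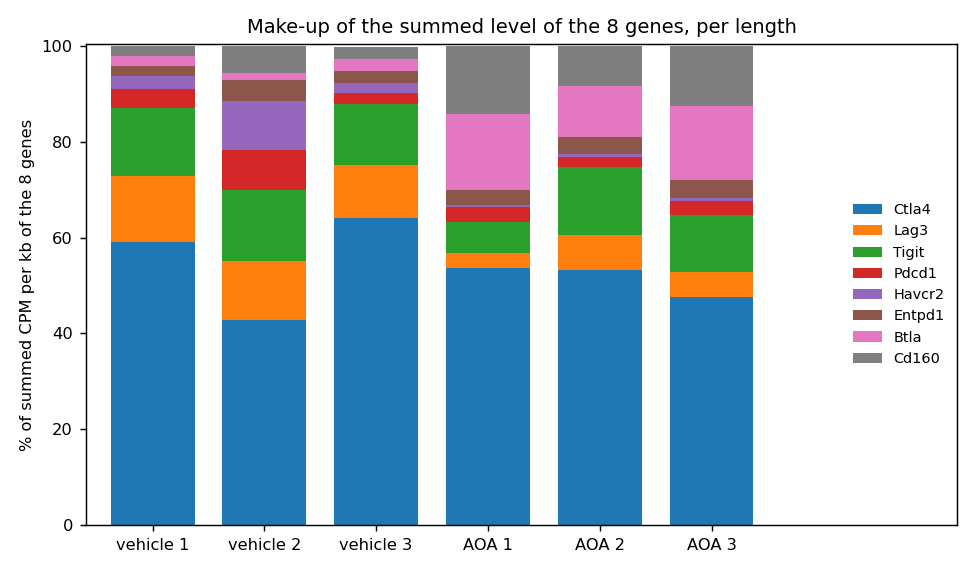
Share of each gene in the summed CPM per kilobase of the 8 genes, in percent, with 1 stacked bar a library. Ctla4 is the largest part of every bar, and the upper parts for Btla and Cd160 widen from 4.02% to 7.11% in the vehicle bars to 19.0% to 30.0% in the AOA bars.

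Lists of genes around the receptors were then counted in the same fit. Of 14 ligands of these receptors 11 were in the table and 10 were tested, with 5 lower (Pdcd1lg2, Cd86, Cd274, Tnfrsf14 and Pvr), 2 higher (Nectin3 and Hmgb1) and a median log2 fold change of -0.75. Of the 5 activating receptors or ligands that share their partners, 2 fell (Cd28 and Icos), 1 rose (Cd226) and 2 were not called, with a median of 0.03. The count of 1 higher was 0 without each of the 3 libraries named above for Cd226. Over all tested genes 26.8% were called lower and 26.2% higher.

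Signalling and trafficking partners of the receptors showed no common direction. Of 24 genes, all tested, 7 fell, 8 rose and 9 were not called, with a median of 0.03, close to the shares over all genes (26.8% lower and 26.2% higher). The count of 8 was 5 without vehicle replicate 1 or without AOA replicate 2. Cblb, a ubiquitin ligase that dampens antigen receptor signalling in the absence of CD28, was at 637, 553 and 561 CPM with vehicle and 118, 164 and 151 CPM with AOA and fell by 2.02 on the log2 scale (SE 0.17, adjusted p = 3.21e-05). The adaptors Sh2d2a (TSAd) and Sh2d1a (SAP) fell by 1.89 (adjusted p = 7.13e-04) and 1.42 (adjusted p = 2.63e-04). Ptpn6, the phosphatase SHP-1 that several of these receptors recruit, rose from 177 to 301 CPM (log2 fold change 0.77, SE 0.17, adjusted p = 0.00442). Ap2m1, the clathrin adaptor subunit that takes CTLA-4 off the surface, rose by 0.67 (adjusted p = 0.00178), and Tmed2, a protein of the early secretory pathway, by 0.70 (adjusted p = 0.00714).

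Transcription factors known to act on the receptor genes were mostly lower. Of 26 listed genes 25 were tested, of which 15 fell, 2 rose and 8 were not called, with a median log2 fold change of -0.74, where 26.8% of all tested genes fell and 26.2% rose. Nr4a3, an early target of antigen receptor signalling, was at 33.5, 18.4 and 25.4 CPM with vehicle and 3.08, 5.92 and 4.09 CPM with AOA and fell by 2.56 on the log2 scale (SE 0.30, adjusted p = 1.64e-04). Nr4a1, of the same family, was at 20.1, 3.61 and 19.7 CPM with vehicle and 2.25, 3.33 and 2.22 CPM with AOA and fell by 2.47 (SE 0.56, adjusted p = 0.00495). In mouse 2 the levels of Nr4a1 were close in both groups. Bhlhe40 was at 269, 556 and 252 CPM with vehicle and 56.3, 72.9 and 63.5 CPM with AOA and fell by 2.48 (SE 0.30, adjusted p = 2.05e-04), with vehicle replicate 2 the highest, as for Pdcd1 and Havcr2. Nfatc1, which encodes an NFAT factor, was at 240 ± 6.12 CPM with vehicle and 180 ± 33.1 CPM with AOA (SD, n = 3) and missed the threshold (log2 fold change -0.42, SE 0.16, adjusted p = 0.0516). With the mouse as a replicate block it was called (-0.43, adjusted p = 0.0470).

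The 2 factors that rose were Tox and Id3. Tox, which supports the exhaustion programme and receptor expression under persistent stimulation, was at 9.29, 8.50 and 10.2 CPM with vehicle and 20.8, 27.4 and 27.0 CPM with AOA (log2 fold change 1.42, SE 0.18, adjusted p = 2.37e-04). Its level was thus higher where Pdcd1, Lag3, Havcr2 and Tigit were lower. Id3, an inhibitor of E proteins that is high in naive and memory cells, went from 13.7 ± 1.82 to 51.3 ± 7.76 CPM (SD, n = 3, log2 fold change 1.91, SE 0.17, adjusted p = 4.50e-05).

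Other inhibitory receptors, outside the 8 genes, were also mostly lower. Of 16 listed genes 13 were tested, of which 10 fell, 1 rose and 2 were not called, with a median log2 fold change of -0.98, again where 26.8% of all genes fell and 26.2% rose. Without AOA replicate 3 the 10 became 6. Cd101 was at 21.6, 9.57 and 21.6 CPM with vehicle and 3.91, 4.18 and 3.28 CPM with AOA and fell by 2.21 on the log2 scale (SE 0.32, adjusted p = 5.04e-04). Klrc1, which encodes the NK receptor NKG2A, fell by 1.70 (SE 0.36, adjusted p = 0.00353). Cd244a (2B4) was at 9.21, 45.9 and 10.9 CPM with vehicle and 5.70, 7.72 and 4.84 CPM with AOA, a fall of 1.86 (SE 0.56, adjusted p = 0.0202) with vehicle replicate 2 far above the rest. Without that library it was -0.70 (adjusted p = 0.0322), and its call was lost without each AOA replicate in turn and with limma voom, with adjusted p between 0.0559 and 0.0989. Lair1, a collagen receptor, was the 1 gene that rose, from 9.09 ± 1.85 to 25.8 ± 6.87 CPM (SD, n = 3, log2 fold change 1.50, SE 0.24, adjusted p = 8.21e-04).

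**Figure D4:**
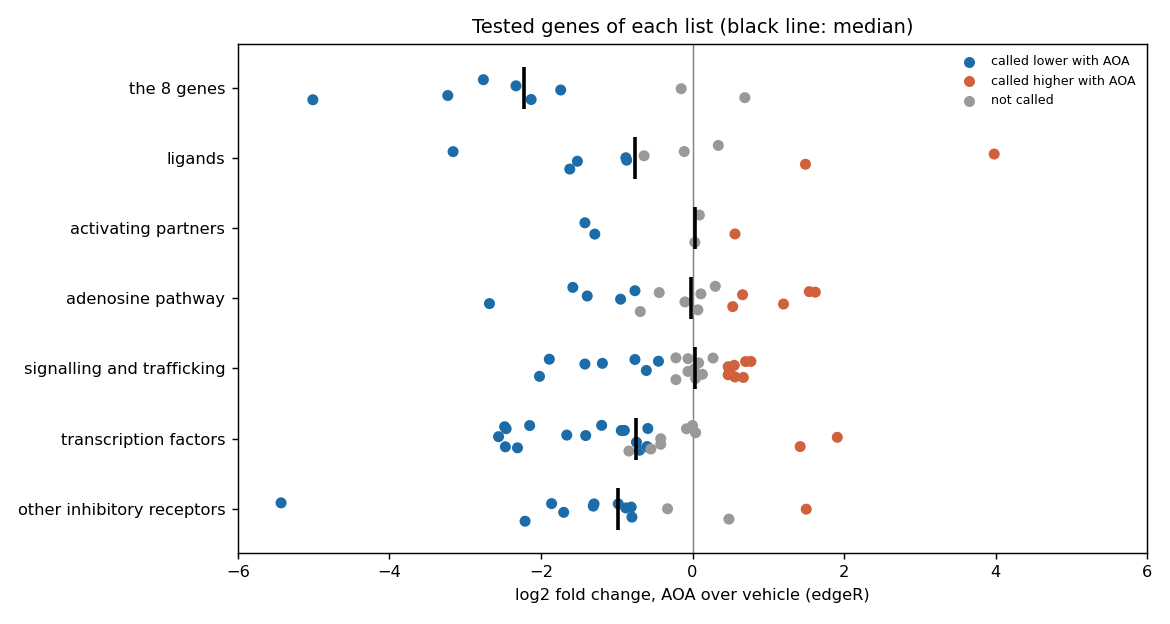
Log2 fold change of AOA over vehicle (edgeR) on the x axis for every tested gene of 7 lists, with blue for genes called lower, orange for genes called higher, grey for genes not called and a black line at each median. The median of the 8 genes lies at -2.23, those of the transcription factor, ligand and other inhibitory receptor lists at -0.74, -0.75 and -0.98, and those of the other 3 lists between -0.01 and 0.03.

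For each of the 8 genes the tested genes with the most similar profile over the 6 libraries were found, by the root mean square difference of centred log2 CPM. The nearest to Ctla4 was Cd101, the inhibitory receptor described above, at 0.126. Tigit was nearest to Tubb6 (0.143) and Cd40lg (0.144), the latter a CD4 T cell marker, and Lag3 to Pik3ap1 (0.146) and Ppfia3 (0.147). Pdcd1 was nearest to Dzank1 (0.132) and Qrfp (0.170). The prior count of 2 in log2 CPM draws low genes together, and Dzank1, at 1.41 CPM with vehicle and 0.0980 CPM with AOA, had an edgeR log2 fold change of -3.74, against -2.76 for Pdcd1 and -2.86 for Qrfp. Havcr2 was nearest to Gpr141 and Adamts14 (both 0.260) and Entpd1 to Cdkl3 (0.102) and Dennd4c (0.115). Btla was nearest to Tmem50b (0.083) and Rab3ip (0.096), and Cd160 to BC064078 (0.078) and Slc35d2 (0.120). Within the 8, the closest pair was Ctla4 and Tigit at 0.456, followed by Lag3 and Tigit at 0.480 and Entpd1 and Tigit at 0.493, whereas the nearest of the 8 to Havcr2 was Lag3, at 1.055. These differences describe 6 libraries that share the contrast of AOA and vehicle, and were not tested.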

How the data were processed

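RNA of CD8+ T cells was sequenced from stranded mRNA libraries as paired-end reads, and per the paper's methods the reads were mapped with STAR and uniquely mapped reads were counted. The authors deposited raw counts per gene with a gene length. Their processing notes also name bcl2fastq, featureCounts, DESeq2 and the build mm10. No source gives the annotation, the strand setting or any filter. Columns of per-sample values left unused numbered 0.

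The 8 genes and all lists were chosen with earlier results of these data known, and neighbouring genes were described after the data had been seen. In R 4.3.3, edgeR 4.0.16 (filterByExpr with a minimum count of 10, TMM, robust quasi-likelihood test, Benjamini-Hochberg over 11759 genes, threshold 0.05) compared the groups without a mouse term. Log2 CPM used a prior count of 2, and standard errors were the log2 fold change over the root of F. As alternatives the fit was repeated with limma 3.58.1 (voom) and DESeq2 1.42.0, with library totals or median-of-ratios factors, without the filter or with 10 CPM required in 3 libraries, with mouse as a block, and with each library left out. The labels give the same donors to both groups, which sets the pairing, and deviations from the group means correlated within mice 1, 2 and 3 with r = 0.0868, 0.189 and 0.194 across genes. Replicates differed beyond counting noise (chi-square per gene 10.03 to 71.14). Named genes are the 8, up to 3 called genes per list and direction with the largest change, provided that the higher group averaged 10 CPM or more and all 3 mice agreed in direction, marker genes, and the 2 most similar profiles. Cd86, Pvr, Nectin3, Nt5e, Entpd5, Enpp1, Dpp4, Panx1, Nfatc1, Cd4, Ptms, Lgals9, Ceacam1, BC002163, Qtrt2 and Atg3 were added after their values were seen. Gene coordinates are from GENCODE vM21 and promoters from RefSeq, both GRCm38. The steps were run on simulated counts in which far fewer genes changed than were called here and no mouse effect was set. That run does not test the scaling, or the fit without a mouse term, under the conditions of these data.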

Additional observations from a re-analysis of the deposited data

How the results depend on the processing

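The falls of Pdcd1, Lag3, Havcr2, Tigit, Ctla4 and Entpd1 kept their direction and call under all 13 alternatives, and 6 genes were called lower in each. With 1 library left out, their log2 fold changes ranged from -3.0 to -2.33 for Pdcd1, -3.76 to -2.95 for Lag3, -5.30 to -4.19 for Havcr2, -2.72 to -2.07 for Tigit, -2.35 to -1.88 for Ctla4 and -1.88 to -1.54 for Entpd1. The call of Btla depended on the setting. Its log2 fold change was 0.70 (adjusted p = 0.0236) with DESeq2, 0.76 (0.0427) with limma voom, 0.71 (0.0399) with library totals only, 0.72 (0.0471) with no low-count filter and 0.76 (0.0116) with the mouse as a replicate block, and each of these settings called 1 gene higher in place of 0. With 1 library left out it ranged from 0.45 to 1.03, and 0 to 1 gene was called higher. Cd160 turned from -0.15 to 0.23 without vehicle replicate 2, with a range of -0.36 to 0.23. Nt5e (-0.10 as reported) was at 0.02 with limma voom and 0.00 with the replicate block, and with 1 library left out it ranged from -0.38 (without vehicle replicate 2) to 0.15 (without vehicle replicate 3). The cause of these changes was not tested. Without Ctla4 the genes took 0.0453% of counts with vehicle and 0.0154% with AOA. The replicate block changed no other call of the 8 genes and the calls of 2 genes of the other lists, and it called 6292 genes in all, of which 6007 were also called without it. Genes called over the table ranged from 4923 to 6796, and called genes of the other lists from 34 to 48 lower and from 15 to 20 higher. Of 156 counts for single lists 149 stayed within 1.5 times, and of 679 values for 53 named genes outside the 8, markers included, 646 kept their direction and call. Scaling by library totals moved the median of all genes by 0.0138 on the log2 scale. At this depth Havcr2 with AOA, at 29 to 47 counts, had the largest counting error of the 8.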
